A study of Mus musculus with 6 samples.

Results

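The genes described here belong to the fibroblast growth factor (FGF) pathway of the mouse lung. They are the receptor Fgfr2, the ligands Fgf7, Fgf9 and Fgf10, the feedback inhibitors Spry1, Spry2, Spry4 and Dusp6, and the transcription factors Etv4 and Etv5. They were chosen by name, with earlier results of these data known. Every probe set of the array was taken whose annotation names exactly 1 gene and that gene is one of these 10. This gave 21 probe sets for the 10 genes, of 18193 genes that the array names in this way. RNA was taken from whole embryonic lungs at E18.5, shortly before birth, and hybridised to Affymetrix Mouse430_2 arrays. The question of the series is which lung genes depend on the zinc finger factor GATA6. It sets 3 arrays labelled GATA6 KO (KO 1 to KO 3) against 3 arrays of wild-type lungs (WT 1 to WT 3). The labels name no allele, no Cre driver and no strain, and do not say whether an array holds 1 embryo or a pool or whether arrays share a litter, so the p-values measure the spread between these arrays.

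FGFs are secreted proteins that bind receptor tyrosine kinases together with heparan sulfate and switch on the RAS to ERK kinase cascade. In the lung FGF10 and FGF7 are made by mesenchymal cells and act on the epithelium through an epithelial splice form of FGFR2. FGF9 comes from mesothelium and epithelium and acts on the mesenchyme. ERK activity in turn raises transcription of Etv4, Etv5, the Sprouty genes and Dusp6, which is why these genes are commonly read as reporters of FGF signalling. Sprouty proteins restrain the cascade upstream of ERK, and DUSP6 is a phosphatase that inactivates ERK itself.

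Levels below are log2 of the deposited linear intensity plus 16, and differences are the arrays labelled KO minus those labelled WT on that scale. On this scale the lowest value of any array is 4.17, and a probe set is called dim where neither group mean lies above 6.88, the median of all genes. Levels of different probe sets are not comparable, so each probe set is compared only with itself across arrays. The median intensity per array lay between 20.6 and 24.1. Gata6 itself read higher in the arrays labelled KO in all 3 of its probe sets, by 0.79 (SE 0.25, limma adjusted p = 0.963) in the brightest, and since the position of its probe sets in the gene is not given here, its level does not check the labels. Bright probe sets without a gene name (unnamed signal below) were higher in KO 2, KO 3 and WT 1: relative to the median of named ones, theirs was -0.57, -0.12 and -0.30 log2, and it was -1.16, -1.15 and -1.13 in KO 1, WT 2 and WT 3. Fluidics station 1 washed WT 1 and WT 2 and station 2 the other 4 arrays, and the scanner read the 3 WT arrays first, so scan order and label cannot be told apart. Thymus and T cell markers, a check on other tissue, read dim in all 6 measured genes. Cardiac muscle markers did not: 6 of the 7 measured were not dim. Their summed intensity ran from 2884 in KO 1 to 8288 in KO 3, and its source was not tested. Of the 11 general epithelial genes, Nkx2-1, Cldn4 and Elf3 were dim, and Nkx2-1 is a defining gene of lung epithelium, whereas all 9 measured genes of alveolar type II cells and all 10 of type I cells were above that threshold.

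None of the member probe sets passed the test between the labels. Of the 21 probe sets 17 had a lower and 4 a higher mean in the arrays labelled KO, and over all 45037 the share with a lower mean was 37.0%. The median difference of the 21 was -0.16, against 0.003 over all 45037, and 9 of the 21 were dim. The brightness threshold was passed by 12 probe sets from 7 genes. Of these, 1440867_at of Spry4 and 1420998_at of Etv5 passed it through the WT mean alone, so the filter fixes their lower KO mean and they are left out of the counts below. The 10 with both group means above the threshold all had a lower mean in the arrays labelled KO, with differences from -0.79 to -0.04 and a median of -0.23. Over all 15483 probe sets of the array with both means above it, 54.3% had a lower mean and the median difference was -0.02. In limma 0 of the 21 passed an adjusted p of 0.05 over all 45037 probe sets, and 0% of all probe sets passed in either direction. The adjusted p of the 21 ran from 0.963 to 0.979. At an unadjusted p under 0.05 there was 1 of the 21 (Fgfr2), against 3.1% of all probe sets. In 1 of the 10 every KO array lay below every WT array, against 5.68% of the 15483, and in none did they lie above (4.46%). Probe sets of 1 gene share their transcript, so the 10 are not independent readings. In whole lung, fewer cells of a type and less RNA per cell cannot be told apart.

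**Figure D1:**
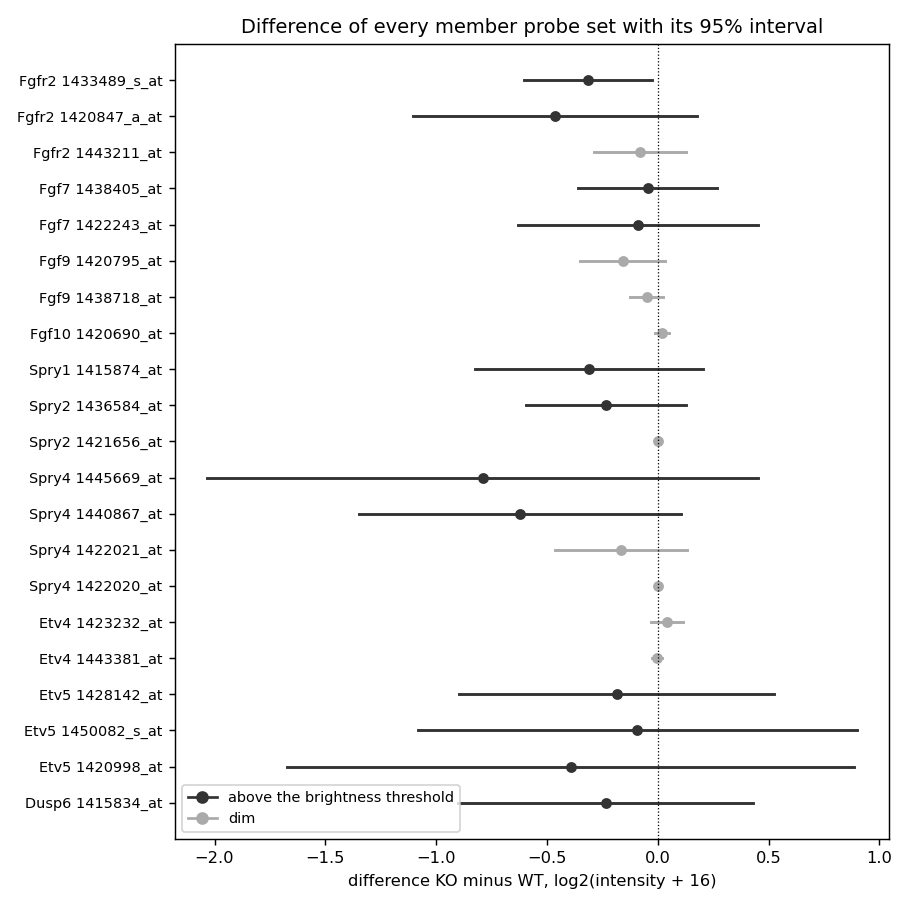
Difference KO minus WT of every member probe set (x axis, log2 of intensity plus 16) with its 95% interval from the limma fit. Black marks the 12 probe sets above the brightness threshold in at least 1 group and grey the 9 dim ones. Of the black ones, 1440867_at of Spry4 and 1420998_at of Etv5 passed through the WT mean alone, and the other 10 also lie left of 0. The brightest probe set of Fgfr2 is the one black interval that leaves out 0, at -0.60 to -0.02 before any adjustment for 45037 tests.

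Fgfr2, the receptor that carries FGF7 and FGF10 signals into the lung epithelium, was the member with a probe set whose arrays separated by label. Its brightest probe set, 1433489_s_at, read 11.32, 11.31 and 11.31 in KO 1, KO 2 and KO 3, against 11.49, 11.53 and 11.86 in WT 1, WT 2 and WT 3. The 3 KO arrays lay within 0.01 of each other and below every WT array, with WT 3 highest. The mean was 11.31 ± 0.01 in the KO arrays and 11.63 ± 0.20 in the WT arrays (SD, n = 3 each), a difference of -0.31 (SE 0.12), or 0.80-fold, with an unadjusted p of 0.038 and an adjusted p of 0.963 in limma. Without WT 3 it was -0.20. The difference is smaller in size than the range of 0.37 among the WT arrays.

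A second bright probe set of Fgfr2, 1420847_a_at, read 10.18, 9.85 and 9.35 in KO 1, KO 2 and KO 3, against 9.97, 10.23 and 10.57 in WT 1, WT 2 and WT 3. Here the groups overlapped, since KO 1 lay above WT 1. Its difference was -0.46 (SE 0.26, adjusted p = 0.963 in limma), with a 95% interval of -1.10 to 0.18. It was -0.24 without KO 3 and -0.31 without WT 3. The third probe set, 1443211_at, was dim in both groups, at 4.50 to 4.57 in the arrays labelled KO and 4.46 to 4.80 in those labelled WT. Which splice form each probe set detects is not given in the sources used here. On station 2, which holds the 3 arrays labelled KO and WT 3, the array in which both bright probe sets read highest, the difference was -0.55 (SE 0.14) for the brightest and -0.78 (SE 0.37) for the second. With the signal on unnamed probe sets as a covariate it was -0.29 (SE 0.12) for the brightest and -0.30 (SE 0.13) for the second.

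The RefSeq window around the Fgfr2 start site is shown because its brightest probe set separated by label and GATA factors recognise a short motif. Its second bright probe set overlapped. Of the 15483 probe sets with both means above the threshold, 5.68% separated with the KO arrays below. It spans GRCm38.p6 chr7:130266759-130267058 on the minus strand, 250 bases before the start to 50 after it. Capitals mark GATAAG, searched on both strands, which occurs once, from 9 bases after the start.
Fgfr2 promoter: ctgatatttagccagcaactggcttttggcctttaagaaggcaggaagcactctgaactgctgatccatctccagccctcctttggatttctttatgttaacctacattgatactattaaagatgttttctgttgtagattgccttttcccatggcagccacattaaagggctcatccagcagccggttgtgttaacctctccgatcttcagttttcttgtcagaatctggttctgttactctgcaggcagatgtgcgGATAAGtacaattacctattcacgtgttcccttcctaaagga
The same letters are found in 7.44% of all 32851 RefSeq promoter windows of this length. Among the 9 windows of the 8 genes matched here, GATAAG is also in the window of Dusp6. A match is a description of the letters and shows no binding.

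Of the ligands, Fgf7 was measurable in every array, while Fgf9 and Fgf10 were dim. Fgf7, the keratinocyte growth factor of lung mesenchyme, read 9.25, 9.19 and 9.48 in KO 1, KO 2 and KO 3 and 9.32, 9.24 and 9.51 in WT 1, WT 2 and WT 3 on probe set 1438405_at. The groups overlapped, and KO 3 and WT 3 were the highest arrays. The difference was -0.04 (SE 0.13), with a 95% interval of -0.36 to 0.27. The second probe set, 1422243_at, also placed KO 3 and WT 3 highest, at 8.42 and 8.37, with the others between 7.84 and 8.16, and a difference of -0.09 (SE 0.22). Between the arrays KO 2, KO 3 and WT 1 and the other 3, the brighter probe set of Fgf7 differed by -0.00074 and the dimmer by 0.09, with no common sign.

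Fgf9, the growth factor of mesothelium and epithelium that feeds the lung mesenchyme, read 4.91, 4.92 and 4.86 in KO 1, KO 2 and KO 3, against 5.08, 4.91 and 5.18 in WT 1, WT 2 and WT 3 on its brighter probe set. WT 2 lay among the KO arrays, and WT 1 and WT 3 stood slightly above them. The difference was -0.16 (SE 0.08, adjusted p = 0.963 in limma), and the means, 4.90 in the KO arrays and 5.05 in the WT arrays, lie far below the brightness threshold. Its other probe set read 4.47 to 4.55 in the arrays labelled KO and 4.51 to 4.60 in those labelled WT. Of the mesothelial markers, 7 genes had both means above the threshold, 5 of them lower in the arrays labelled KO, with a median difference of -0.22. The part of mesothelial RNA in the Fgf9 reading was not tested.

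Fgf10, the mesenchymal ligand that drives lung budding, has 1 probe set, and it read between 4.38 and 4.42 in the arrays labelled KO and between 4.37 and 4.38 in those labelled WT. That is at the floor in all 6 arrays. Such a reading does not show that the transcript was absent, because Spry2 and Spry4 each have a probe set at the floor beside a bright one in the same arrays. Whether Fgf10 differed between the labels was therefore not measurable here. The same holds for Etv4, an ETS transcription factor induced by FGF, whose 2 probe sets read 4.39 to 4.55 in the arrays labelled KO and 4.40 to 4.51 in those labelled WT.

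The Sprouty genes, which encode inhibitors induced by the pathway they restrain, read lower on average in the arrays labelled KO, with overlapping groups in each. Spry1 read 10.17, 9.91 and 9.46 in KO 1, KO 2 and KO 3, against 9.96, 10.36 and 10.15 in WT 1, WT 2 and WT 3. KO 3 stood lowest, and KO 1 read above 2 of the WT arrays. The mean was 9.85 ± 0.36 in the KO arrays and 10.16 ± 0.20 in the WT arrays (SD, n = 3 each), a difference of -0.31 (SE 0.21, adjusted p = 0.963 in limma). It was -0.12 without KO 3 and -0.47 without KO 1.

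Spry2 read 9.20, 9.02 and 8.75 in KO 1, KO 2 and KO 3, against 9.36, 9.16 and 9.16 in WT 1, WT 2 and WT 3 on probe set 1436584_at. KO 1 lay inside the range of the WT arrays and KO 2 and KO 3 below it. The difference was -0.23 (SE 0.15, adjusted p = 0.963 in limma), or 0.85-fold, and -0.11 without KO 3. The other probe set of Spry2 read 4.35 to 4.37 over all 6 arrays, at the floor.

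Spry4 had the widest spread between arrays among the 12 bright probe sets, 1.77 from the lowest to the highest array, followed by a probe set of Etv5 at 1.76. Its brightest probe set, 1445669_at, read 8.50, 7.23 and 7.25 in KO 1, KO 2 and KO 3, against 7.63, 9.01 and 8.71 in WT 1, WT 2 and WT 3. KO 1 lay with WT 2 and WT 3, and WT 1 lay with KO 2 and KO 3, so the 6 arrays formed an upper and a lower trio that mix the labels. The difference by label was -0.79 (SE 0.50, adjusted p = 0.963 in limma), or 0.58-fold, with a 95% interval of -2.03 to 0.45. It was -1.21 without KO 1, -1.20 without WT 1 and -0.51 without WT 2. Probe set 1440867_at split the arrays in the same way, at 7.14, 6.47 and 6.55 in KO 1, KO 2 and KO 3 and 6.93, 7.63 and 7.48 in WT 1, WT 2 and WT 3, with a difference of -0.62 (SE 0.30). The 2 remaining probe sets were dim, between 4.33 and 4.96 in every array. One of them, 1422021_at, read 4.96 in WT 3 and 4.47 to 4.55 in the other 5 arrays, and with fluidics station as a block it was the member probe set that passed in limma, at -0.45 (SE 0.03, adjusted p = 0.040). That fit sets the arrays labelled KO against WT 3 alone.

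Etv5, an ETS transcription factor that mediates FGF output in the lung epithelium, read 10.88, 11.03 and 10.23 in KO 1, KO 2 and KO 3, against 10.57, 11.34 and 10.78 in WT 1, WT 2 and WT 3 on its brightest probe set, 1428142_at. WT 2 was highest and KO 3 lowest, and the remaining arrays interleaved. The difference was -0.19 (SE 0.29, adjusted p = 0.963 in limma), with a 95% interval of -0.90 to 0.53. Its 2 other probe sets placed KO 3 and WT 1 below the other 4 arrays: 1450082_s_at read 8.13, 8.07 and 7.25 in KO 1, KO 2 and KO 3 and 7.19, 8.34 and 8.20 in WT 1, WT 2 and WT 3, with a difference of -0.09 (SE 0.40). The last, 1420998_at, read 7.21, 7.35 and 5.83 in the arrays labelled KO and 6.50, 7.48 and 7.59 in those labelled WT, with a difference of -0.39 (SE 0.52). Without KO 3 the differences of all 3 probe sets were above 0, at 0.06, 0.19 and 0.09 in the order given here, and without WT 2 those of 1428142_at and 1450082_s_at were 0.04 and 0.12.

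Dusp6, the ERK phosphatase, read 10.63, 10.17 and 9.86 in KO 1, KO 2 and KO 3, against 10.02, 10.72 and 10.63 in WT 1, WT 2 and WT 3. KO 1 matched WT 2 and WT 3, and WT 1 lay between KO 2 and KO 3. The mean was 10.22 ± 0.39 in the KO arrays and 10.46 ± 0.38 in the WT arrays (SD, n = 3 each), a difference of -0.24 (SE 0.27, adjusted p = 0.963 in limma). It was -0.06 without KO 3 and -0.45 without WT 1, the ends of its range when 1 array was left out.

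**Figure D2:**
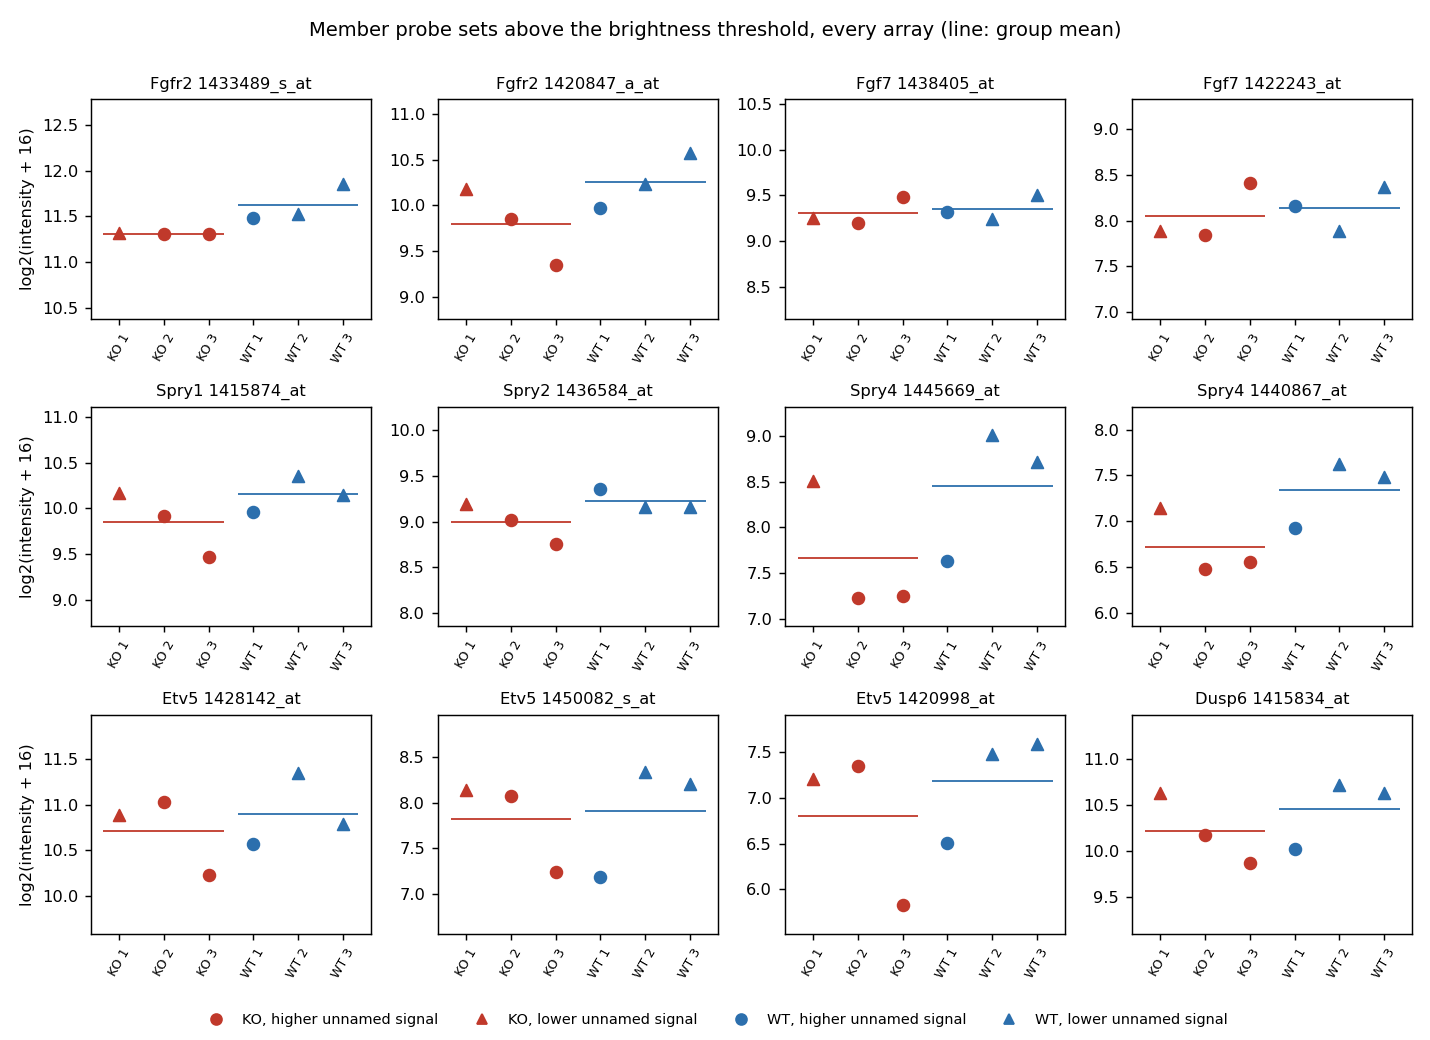
Level of the 12 bright member probe sets in every array (y axis, log2 of intensity plus 16), with KO arrays in red left of WT arrays in blue and lines at the group means. Circles are the arrays with more signal on unnamed probe sets (KO 2, KO 3 and WT 1) and triangles the other 3. Circles lie below triangles in the panels of Spry1, Spry4 and Dusp6, among others, while Fgf7 shows no such split.

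Some of these genes had an order of arrays that mixes the labels. In 5 of the 10 probe sets with both means above the threshold, 1 each from Fgfr2, Spry1, Spry4, Etv5 and Dusp6, the arrays KO 2, KO 3 and WT 1 all lay below KO 1, WT 2 and WT 3, which was also so for 26.6% of the 15483 of the array. It was not so for the brightest probe sets of Fgfr2 and Etv5, for Spry2, in which WT 1 was the highest array, or for Fgf7. The mean of these 3 arrays was lower in 9 of the 10. The gap reached -1.37 for Spry4 and -0.64 for Dusp6, and it was larger in size than the difference by label in 6 of the 10. Because 2 of the 3 low arrays carry the KO label, the 2 differences share data. KO 3 was the lowest of the 6 arrays in 6 of the 10, against 29.7% of the 15483, and KO 2 in 3 of the 10, against 13%.

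Within the arrays of higher unnamed signal, KO 2 and KO 3 against WT 1, 7 of the 10 had a lower mean in the arrays labelled KO. Within the other 3, KO 1 against WT 2 and WT 3, it was 9 of the 10. Fgfr2 read lower in both, by -0.18 and -0.38 for its brightest probe set and by -0.37 and -0.22 for the second. Spry4 also read lower in both, by -0.39 and -0.36 for its brightest probe set. Dusp6 differed by -0.003 and -0.05, and the brightest probe set of Etv5 by 0.06 and -0.18. With the unnamed signal as a covariate the difference of Dusp6 was -0.05 (SE 0.06), that of Spry4 was -0.46 (SE 0.21) and that of Etv5 was -0.04 (SE 0.23) for the brightest probe sets. In each of these comparisons 1 arm is a single array or the fit has 1 more term on 6 arrays, and the part of RNA composition in the differences was not tested.

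**Figure D3:**
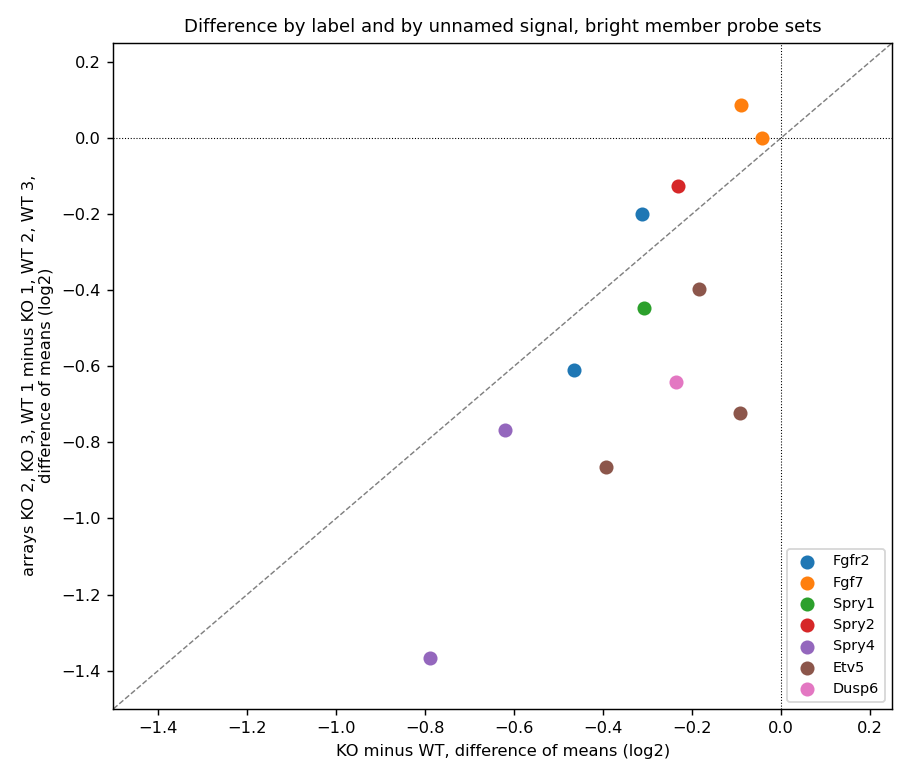
For each bright member probe set, the difference KO minus WT (x axis, log2) and the difference between the arrays KO 2, KO 3 and WT 1 and the other 3 (y axis, log2). The dashed line marks equal differences. Spry4, Dusp6 and Etv5 lie below the line, at up to -1.37 on the y axis, and Fgf7 lies near 0 on both.

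Immediate early genes, which ERK and stress signals induce within minutes, gave a similar order of arrays in their mean log2 level, with 5 of the 12 dim. The mean level of the 12 genes was 7.86, 7.49 and 7.24 in KO 1, KO 2 and KO 3, and 7.56, 7.87 and 8.03 in WT 1, WT 2 and WT 3. By this mean KO 1 again lay with WT 2 and WT 3, but the summed intensity was highest in WT 1 (10009). Jun, Egr1, Ier2, Zfp36 and Nr4a1 had KO 2, KO 3 and WT 1 lowest. Fos and Ier3 did not, with WT 1 highest at 9.33 and 12.57. In Fos every KO array lay below every WT array. Of these 12 genes 10 had a lower mean in the arrays labelled KO, among them all 7 with both means above the threshold, and none passed in limma. Their part in the readings of the feedback genes was not tested.

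The start regions of Spry2 and Dusp6 are shown because these feedback genes share a motif of Capicua, a repressor that ERK inactivates. The motif was searched on both strands as TGAATGAA, TGAATGGA, TCAATGAA and TCAATGGA. The window of Spry2 is GRCm38.p6 chr14:105896770-105897069 on the minus strand, and that of Dusp6 is GRCm38.p6 chr10:99262981-99263280 on the plus strand. Capitals mark the matches to Capicua, to GATAAG and to the ETS letters CCGGAA, on either strand.
Spry2 promoter: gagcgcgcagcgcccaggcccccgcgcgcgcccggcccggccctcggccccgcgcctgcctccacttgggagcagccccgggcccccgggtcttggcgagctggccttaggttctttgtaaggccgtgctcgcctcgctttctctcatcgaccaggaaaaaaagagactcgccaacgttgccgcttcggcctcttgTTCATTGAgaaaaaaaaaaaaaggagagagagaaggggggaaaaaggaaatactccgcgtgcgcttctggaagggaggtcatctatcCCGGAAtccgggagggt
Dusp6 promoter: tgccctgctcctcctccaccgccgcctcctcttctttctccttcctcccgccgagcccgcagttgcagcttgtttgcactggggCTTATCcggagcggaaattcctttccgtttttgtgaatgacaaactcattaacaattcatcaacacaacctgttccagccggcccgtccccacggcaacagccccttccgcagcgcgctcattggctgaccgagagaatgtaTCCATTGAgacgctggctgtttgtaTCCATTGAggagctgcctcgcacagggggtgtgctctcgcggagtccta
In Spry2 the Capicua letters begin 54 bases before the start and the ETS letters 34 bases after it. In Dusp6 the Capicua letters occur at 2 positions, 24 bases before the start and 2 bases after it, and GATAAG lies 166 bases before the start. The Capicua letters are in 2 of the 9 member windows and in 3.84% of all windows, CCGGAA in 1 of the 9 and in 14.9%, and the AP-1 letters TGANTCA in 0 of the 9 and in 7.81%. Both windows of Etv5 and that of Spry1 hold none of the 4 motifs. Spry4 and Etv4 have no window among the 9 and were not read for motifs.

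The wider pathway was read through 6 lists of 84 genes, also chosen with earlier results of these data known. Of these genes 76 are measured here and 45 had both group means above the brightness threshold. None passed in limma with 1 probe set per gene, where 0.0055% of 18193 genes passed (lowest adjusted p of the lists 0.829). Of the 45, 31 had a lower and 14 a higher mean in the arrays labelled KO, with a median of -0.12, against -0.03 over all 8874 genes that met the same rule. For 6 of the 45 genes every KO array lay below every WT array, and for 2 above, against 6.03% and 5.01% of those 8874 genes.

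Among the other feedback and target genes 13 were measured, 9 of them lower on average and 4 higher, with a median of -0.09. In 7 both means lay above the threshold, 6 lower and 1 higher, with a median of -0.36. Dusp7, a further ERK phosphatase, read 7.90, 7.64 and 6.58 in KO 1, KO 2 and KO 3, against 9.07, 9.08 and 8.60 in WT 1, WT 2 and WT 3. The groups did not overlap, WT 1 read as high as WT 2, and KO 3 was lowest. The difference was -1.54 (SE 0.38, adjusted p = 0.886 in limma), and -1.41 with the unnamed signal as a covariate. Pea15a, which binds ERK and keeps it in the cytoplasm, differed by -0.52 (SE 0.17, adjusted p = 0.964 in limma), also without overlap.

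Of the other receptors and binding proteins 8 were measured and 5 were bright, 4 lower and 1 higher, all with overlapping arrays and a median of -0.12. Of the 19 other ligands 17 were dim and 2 bright, with overlapping arrays. The cascade from the receptor to ERK had 11 measured genes, 10 of them bright, 8 lower and 2 higher, with a median of -0.13. Sos2, an exchange factor that loads RAS with GTP, was the one whose arrays did not overlap, with all 3 labelled KO above, by 0.09 (SE 0.08, adjusted p = 0.964 in limma).

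Heparan sulfate, the co-receptor of FGFs, had 13 bright genes of 15 measured, 7 lower and 6 higher, with a median of -0.002. Hs2st1, a sulfotransferase of these chains, read 11.35, 12.00 and 11.46 in KO 1, KO 2 and KO 3, against 12.20, 12.50 and 12.10 in WT 1, WT 2 and WT 3. All KO arrays lay below all WT arrays, and KO 2 came closest. The difference was -0.66 (SE 0.20, adjusted p = 0.964 in limma).

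Genes that act with FGF10 and FGF9 in the lung had 8 bright members of 10, 5 lower and 3 higher. Id2, an inhibitor of helix-loop-helix factors that marks the distal lung tips, read 13.17, 13.16 and 13.03 in KO 1, KO 2 and KO 3, against 12.73, 12.54 and 12.64 in WT 1, WT 2 and WT 3. Every KO array lay above every WT array, and the difference was 0.48 (SE 0.10, adjusted p = 0.829 in limma). Tbx4, a T-box factor of lung mesenchyme that promotes Fgf10 expression, differed by -0.33 (SE 0.13), and Ptch1, the Hedgehog receptor and target gene, by -0.30 (SE 0.11), both with adjusted p = 0.964 in limma and no overlap. Shh, the Hedgehog ligand of the epithelium, also did not overlap, at -0.15 (SE 0.10, adjusted p = 0.964 in limma), and is named after its values were seen.

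**Figure D4:**
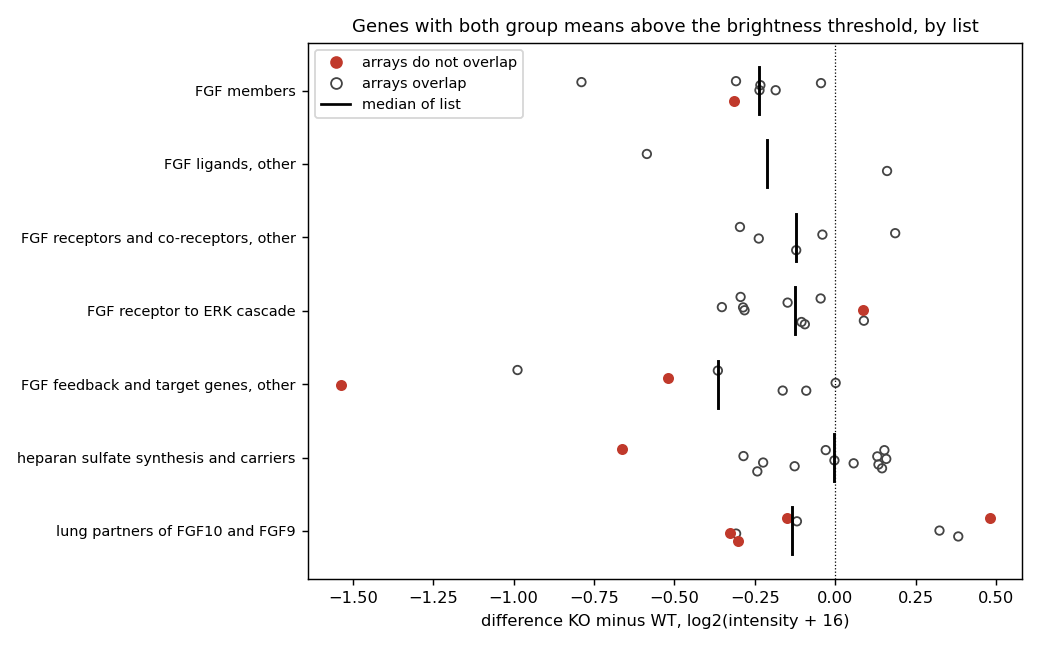
Difference KO minus WT (x axis, log2 of intensity plus 16) of each gene with both group means above the brightness threshold, 1 probe set per gene, for the 10 FGF genes of this report and the 6 wider lists. Filled points are genes whose KO and WT arrays do not overlap, open points overlap, and bars are list medians. Dusp7 stands farthest left at -1.54 and Id2 farthest right at 0.48.

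Beside these readings, cell type markers of the lung were read in the same arrays. General epithelial genes had a median difference of 0.17 among the 8 with both means above the threshold, 5 of them higher and 3 lower in the arrays labelled KO. By the same rule alveolar type I markers had a median of -1.22, with all 9 lower, and alveolar type II markers a median of -0.64, with 7 of 9 lower. Endothelial markers had a median of -0.68, with all 9 lower, and smooth muscle markers a median of -0.22, with all 4 lower. Fibroblast markers had a median of -0.03, with 5 of 8 lower, but spread widely. Of the fibroblast list, Dcn and Lum, genes of matrix proteoglycans that are named after their values were seen, differed by 1.10 (SE 0.20) and 1.47 (SE 0.31). In both every KO array lay above every WT array, with adjusted p of 0.829 and 0.832 in limma. Lum, with a WT mean of 6.32, passed the brightness threshold through the KO mean alone, so the filter fixes its higher KO mean. Of the 8874 genes with both means above the threshold, 5.01% lay above without overlap and 6.03% below. Other lists also held such genes by that rule: type I markers 2 below, type II markers 1 above and 2 below, and endothelial markers 1 below. The mean log2 level of the endothelial list was 9.57, 9.01 and 8.97 in KO 1, KO 2 and KO 3, against 9.30, 10.18 and 9.97 in WT 1, WT 2 and WT 3, with KO 2, KO 3 and WT 1 lowest as for Dusp6. Other lists had another order. KO 1 was the lowest array for type I (10.05), type II (12.46), mesothelial (9.11), macrophage (8.13) and cardiac muscle (7.74) markers. No marker gene passed in limma, and the part of cell makeup in the FGF readings was not tested.

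The genes whose levels over the 6 arrays were most like the brightest probe set of Etv5 were Ptgr2, 1110008P14Rik and Tle5, with Pearson's r of 0.989, 0.981 and 0.980 among 9303 genes. For Fgfr2 they were Net1, Gins1 and Pir, with r of 0.989, 0.988 and 0.979. With 6 arrays many genes come close: 113 genes had r above 0.9 with Etv5 and 44 with Fgfr2. Net1 read 9.26, 9.19 and 9.21 in KO 1, KO 2 and KO 3, against 9.62, 9.58 and 10.08 in WT 1, WT 2 and WT 3, with WT 3 highest as in Fgfr2.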

How the data were processed

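Total RNA of E18.5 mouse lungs was measured on 6 Mouse430_2 arrays, 3 labelled GATA6 KO and 3 wild type. The deposited values are linear intensities, 1 per probe set. GCRMA and MAS5 are both listed, per the submitters' processing notes, and which one produced these values is not given in the sources used here. No intensity is negative, and the arrays were used without further scaling. Intensities were taken to log2 after adding 16.

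Of 45101 probe sets 64 are controls, and 34945 name 1 gene, with symbols updated through gene IDs to assembly GRCm38.p6. The 45037 others than controls entered limma 3.58.1 in R 4.3.3 (lmFit, eBayes with an intensity trend, two-sided, Benjamini-Hochberg over all, threshold 0.05), and every adjusted p comes from limma. Lists used the brightest 1-gene probe set of each of 18193 genes. All 10 members were named with every probe set. Of each pathway list, genes past the threshold were named, and where none passed, up to 3 bright genes with the smallest p whose arrays do not overlap. Counts of direction keep probe sets with both group means above the brightness threshold, except where all measured ones are given. This rule was added after the data were seen. Fluidics station came from the arrays' experiment records. The steps were tested on simulated data. Promoter windows are those of RefSeq. The members and lists were chosen with earlier results of these data known. The alternatives were eBayes without trend or robust, array weights, median centring, quantile normalisation, filters, pseudocounts of 1 and 64, blocks for replicate number and station, a composition covariate, and leaving out each array. Fits within the arrays above or below -0.8 log2 of unnamed minus named signal were added after the data were seen.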

Additional observations from a re-analysis of the deposited data

How the results depend on the processing

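The number of arrays, 3 per label, limits every value. None of the 21 member probe sets passed in 19 of the 20 alternatives fixed at the start. With fluidics station as a block 1 passed, a dim probe set of Spry4, and 37 of all probe sets did. That fit sets the arrays labelled KO against WT 3 alone. Over all probe sets 1 passed with median centring, 1 among probe sets naming 1 gene, 1 with 1 probe set per gene, and 0 without any single array. Another dim probe set, 1443211_at of Fgfr2, came to pass within KO 2, KO 3 and WT 1, with a difference of -0.24. That fit sets KO 2 and KO 3, at 4.55 and 4.57, against WT 1 alone, at 4.80, all near the floor. How many of all probe sets passed in it was not counted. Of 442 member differences under 22 settings, 403 kept their direction and their side of the threshold, 37 changed sign and 2 came to pass.

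Among bright probe sets, the covariate turned 1450082_s_at of Etv5 to 0.16. Within KO 2, KO 3 and WT 1 the Etv5 probe sets were 0.062, 0.47 and 0.087 and 1438405_at of Fgf7 was 0.019, and within KO 1, WT 2 and WT 3 Spry2 was 0.041. Array weights turned 1422243_at of Fgf7 to 0.0019. When 1 array was left out, Etv5 ran from -0.35 to 0.057, from -0.45 to 0.19 and from -0.74 to 0.088, and Fgf7 from -0.13 to 0.032 and from -0.27 to 0.025. Near the floor, 1443211_at of Fgfr2 was 0.049 with array weights and ran from -0.16 to 0.0083 without single arrays. Fgf10 was -0.016, Spry2 -0.031 and Spry4 -0.032 with median centring. With quantile normalisation Spry2 was -0.00033 and Spry4 -0.00065, and with station as a block or within station 2 they were -0.0011 and -0.0011. Without single arrays Spry2 ran from -0.00022 to 0.0069 and Spry4 from -0.00050 to 0.0045. The second Etv4 probe set was 0.00025 with array weights, 0.0025 with the covariate, 0.0024 and 0.00058 within the arrays of higher and lower unnamed signal, and ran from -0.0076 to 0.0075. The cause of these changes of sign was not tested.

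The replicate numbers were not taken as pairs: residuals of same-numbered arrays correlated across genes at -0.613, 0.0971 and -0.311. With the replicate block 0 member probe sets passed. In this balanced design the block cannot move a difference, so that of Fgfr2 is -0.31 by construction and its error alone is fitted anew (adjusted p = 1.00).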
